A study of Mus musculus with 6 samples.

Results

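Eicosanoid and lipid mediator enzymes were examined in mouse bone marrow neutrophils through 10 genes of arachidonate release, leukotriene synthesis and prostaglandin synthesis. The genes were chosen by symbol: Pla2g4a, Alox5, Alox5ap, Lta4h, Ltc4s, Alox15, Ptgs1, Ptgs2, Ptges and Hpgd. All 10 were found among the 52636 genes listed in the expression table, and 7 of them averaged at least 1 TPM across libraries, the level from which 9775 genes were tested. TPM, the transcript share scaled to a fixed library total, is a measure of transcript abundance corrected for gene length, so that levels of different genes can be set side by side. The 10 genes were listed by symbol, but earlier results of these data were known when the list was made.

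The RNA came from C57BL/6N mice aged 10 weeks, with 3 libraries labelled WT and 3 labelled LRP5-null. The LRP5-null genotype combines floxed Lrp5 alleles with Lyz2Cre, a recombinase driven by the lysozyme gene Lyz2, which is active in neutrophils and in other myeloid cells. The study asked how the loss of LRP5, which it links to the uptake of polyunsaturated fatty acids, alters neutrophils, and the comparison below asks whether transcripts of the enzymes that use such fatty acids differed. Nothing in the labels says whether each library came from a separate mouse, so the p-values measure only the spread between these libraries, which may be technical.

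Eicosanoids are signalling lipids made from arachidonate, a polyunsaturated fatty acid that phospholipases free from membrane lipids. Lipoxygenases and their partners turn it into leukotrienes, among them leukotriene B4, a strong neutrophil attractant, whereas cyclooxygenases turn it into prostaglandin H2, from which terminal synthases make prostaglandins and thromboxane. Neutrophils are known as a major source of leukotriene B4, and in inflamed tissue they also make prostaglandin E2.

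Several facts of the libraries bear on the values below. Lrp5 was 1.12, 1.31 and 1.42 TPM in WT replicates 1 to 3 and 1.68, 1.77 and 2.07 TPM in LRP5-null replicates 1 to 3 (a difference of 0.31 on the log2 scale, limma adjusted p = 0.136), so the targeted transcript did not fall and the groups rest on their labels. Lyz2, the site of the Cre, was 25963 ± 1039 TPM (SD, n = 3) in WT libraries and 13792 ± 375 TPM (SD, n = 3) in libraries labelled LRP5-null. Its log2 fold change was -0.91 (limma adjusted p = 0.0035), and the groups did not overlap. The read summary listed 249841492 to 340580330 reads per library. The ribosomal share of reads was 2.69% to 2.98% in libraries labelled LRP5-null. WT replicate 3, at 3.30%, stood with them, whereas WT replicates 1 and 2 were at 1.20% and 1.30%. Intronic reads made up 7.78% to 9.0% in WT and 10.62% to 11.23% in LRP5-null libraries. The summed level of the neutrophil markers was 355737 to 404714 TPM in WT and 387954 to 412523 TPM in LRP5-null libraries, led by S100a9, and matched the labelled cell type. The immature list (led by Ngp) summed to 72024 to 79347 and 74976 to 79100 TPM, and the mature list (led by Retnlg) to 33568 to 38026 and 33614 to 34629 TPM, in WT and LRP5-null libraries. Sums for B cells (12.4 to 13.7 and 12.0 to 13.2 TPM, led by Cd79b), T and NK cells (11.6 to 13.7 and 16.0 to 17.7 TPM, led by Cd3d) and erythroid cells (48.0 to 57.0 and 42.2 to 53.9 TPM, led by Hbb-bs) were low.

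Levels of the 10 genes ran over more than 3 orders of magnitude, and the leukotriene B4 route stood at the top. Alox5ap, whose product FLAP presents arachidonate to 5-lipoxygenase, was the highest and was above 99.3% of the genes tested. Lta4h and Alox5 followed, above 97.6% and 97.2% of genes, and then Ptgs2, above 94.5%. The ranges of Lta4h and Alox5 overlapped, with Lta4h the higher in 4 of 6 libraries, and Alox5 was above Ptgs2 in 5 of 6. The mean of Ptgs2 was 5.17 times that of Ptgs1, the next gene, which was in turn 1.45 times Pla2g4a with no overlap between their ranges. Ptges lay well below these, and Hpgd, Alox15 and Ltc4s had means under 1 TPM. Alox15 was above Ltc4s in 4 of 6 libraries, with overlapping ranges, so the order of these 2 genes was not resolved.

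**Figure D1:**
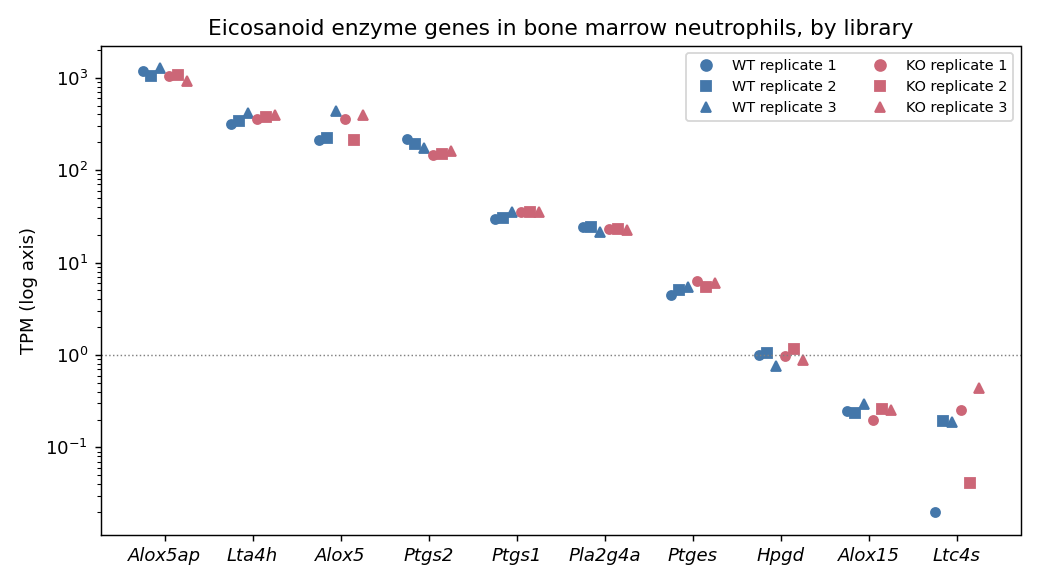
TPM of each of the 10 enzyme genes in every library, on a log axis, with 1 point per library (3 WT in blue, 3 LRP5-null, marked KO, in red) and a dotted line at 1 TPM. Alox5ap lies between 923 and 1268 TPM and Ltc4s between 0.0198 and 0.445 TPM, and among the genes tested the 2 groups of points separate for Ptgs2 only.

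None of the 7 genes tested passed an adjusted p of 0.05 in limma between libraries labelled LRP5-null and WT, where 0.532% of all genes tested did. Of the 7, 4 were higher and 3 lower in LRP5-null libraries, with a median log2 fold change of 0.07 beside 0.04 over all genes tested. One member, Ptgs2, had an unadjusted p under 0.05 (1 of 7, against 23.5% of all genes tested). It was also the only one whose groups did not overlap (1 of 7, against 29.7% of all genes tested). Fold changes here are differences of mean log2(TPM + 1), LRP5-null minus WT, a scale that understates the change of low genes. The exact permutation tests given below are two-sided, and with 3 libraries against 3 they cannot go below p = 0.1.

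Upstream sequences are shown for the first enzyme of the leukotriene route and for both cyclooxygenases, since Alox5 varied most, among the 7 genes tested, between libraries of one label and the 2 cyclooxygenases stood at unequal levels and on opposite sides of zero. The 250 bases before the RefSeq transcription start of each gene are given on GRCm38.p6, 5′ to 3′ on the gene's own strand, with motif matches in capitals.
Ptgs2, chr1:150099781-150100030, plus strand: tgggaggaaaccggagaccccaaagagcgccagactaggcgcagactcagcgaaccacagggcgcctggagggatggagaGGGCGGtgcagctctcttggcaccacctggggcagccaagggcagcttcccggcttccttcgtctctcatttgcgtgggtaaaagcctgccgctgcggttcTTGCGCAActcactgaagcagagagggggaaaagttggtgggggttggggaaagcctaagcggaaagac
Ptgs1, chr2:36230176-36230425, plus strand: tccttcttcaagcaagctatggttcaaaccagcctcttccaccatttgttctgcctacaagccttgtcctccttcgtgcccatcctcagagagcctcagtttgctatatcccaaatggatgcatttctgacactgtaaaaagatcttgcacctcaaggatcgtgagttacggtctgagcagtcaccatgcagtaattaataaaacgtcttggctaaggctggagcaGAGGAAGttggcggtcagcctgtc
Alox5, chr6:116461179-116461428, minus strand: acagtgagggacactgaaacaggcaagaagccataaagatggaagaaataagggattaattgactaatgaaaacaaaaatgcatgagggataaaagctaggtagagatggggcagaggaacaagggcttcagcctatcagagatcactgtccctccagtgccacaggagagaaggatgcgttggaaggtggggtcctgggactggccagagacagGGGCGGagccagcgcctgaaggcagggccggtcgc
Both strands were searched for 7 motifs, and no match shown overlapped another. The GC box was searched as GGGCGG. The TATA box was searched as TATAAA. The CCAAT box is spelled by its name. The E-box was searched as CACGTG. The palindrome bound by C/EBP factors was searched as TTGCGCAA. For the CRE, the half-site TGACGT was used. For ETS factors, the core with its flank, GAGGAAG, was used. The Ptgs2 sequence held a GC box 170 to 165 bases and the C/EBP palindrome 69 to 62 bases before the start. The palindrome was present in 0.164% of all 32851 RefSeq promoter sequences searched, and the GC box in 32.7%. Ptgs1 held an ETS core 24 to 18 bases before its start (present in 10.6% of all promoters), and Alox5 a GC box 35 to 30 bases before its start. Their base composition differed, with a GC content of 61.6% for Ptgs2, 52.8% for Alox5 and 48% for Ptgs1. Of the 10 genes, 8 matched the promoter table. Ptges held 2 GC boxes, Lta4h 2 CCAAT boxes (33.8% of all promoters), Hpgd a GC box, Ltc4s no match, and Pla2g4a a TATA box (12.4%) at one of its 2 starts. The E-box (6.02% of all promoters) and the CRE half-site (6.47%) were found in none of the 8 within these 250 bases. Bases after the RefSeq start were not searched, so motifs there would have been missed. These matches describe letters only, and no binding was measured.

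Pla2g4a encodes cytosolic phospholipase A2 alpha, which frees arachidonate from membrane phospholipids, and lies at chr1:151676748-151808420 (minus strand) in NCBIM37 (mm9), the build used for whole-gene positions below. Its level was 24.6, 24.3 and 21.2 TPM in WT replicates 1 to 3 and 23.1, 23.3 and 22.4 TPM in LRP5-null replicates 1 to 3. All LRP5-null libraries lay inside the WT range. The log2 fold change was -0.02 (95% interval -0.21 to 0.16, limma adjusted p = 0.889; exact permutation p = 0.8), the narrowest interval among the 7 genes tested.

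Alox5 encodes 5-lipoxygenase, which makes leukotriene A4, and lies at chr6:116360095-116411196 (minus strand). It was 211, 221 and 431 TPM in WT replicates 1 to 3 and 356, 214 and 390 TPM in LRP5-null replicates 1 to 3. The libraries formed a low set of 211 to 221 TPM and a high set of 356 to 431 TPM, and each set held libraries of both labels. The group means were 288 ± 124 TPM and 320 ± 93.7 TPM (SD, n = 3 each), a log2 fold change of 0.19 with the widest interval of the 7 genes (-0.55 to 0.93, limma adjusted p = 0.751, exact permutation p = 0.9). Log2 differences anywhere in that interval were thus within the error for Alox5. Ribosomal reads were 1.20%, 1.30% and 2.93% in the low set. With the ribosomal share as a covariate the log2 fold change was -0.25 (limma adjusted p = 0.669). WT replicate 3 was the only WT library with a ribosomal share near that of the LRP5-null group. Fits with this covariate therefore lean on that library. Fewer cells of a type and less RNA per cell cannot be told apart in such bulk values.

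The nearest genes to Alox5 in pattern, by Pearson's r of log2(TPM + 1) over the 6 libraries among all genes tested, were Gm20521 (r = 0.99), Chkb (r = 0.98) and Zmym1 (r = 0.98). Gm20521 was listed at 0 in WT replicates 1 and 2 and in LRP5-null replicate 2, and at 10.9, 9.39 and 9.73 TPM in the other libraries. Zmym1 was 1.27, 1.51 and 3.54 TPM in WT and 3.53, 1.24 and 3.64 TPM in LRP5-null libraries. The same 3 libraries were thus low in Alox5, Gm20521 and Zmym1, genes chosen here for that likeness. The points share libraries and their TPM scaling, and the values are a description.

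Alox5ap lies at chr5:150076634-150099621 (plus strand). It was 1185, 1046 and 1268 TPM in WT and 1032, 1068 and 923 TPM in LRP5-null libraries. LRP5-null replicate 2 lay above WT replicate 2, so the groups overlapped, while the other LRP5-null libraries lay below every WT library. The means were 1166 ± 112 TPM and 1008 ± 75.7 TPM (SD, n = 3 each), a log2 fold change of -0.21 (95% interval -0.42 to 0.0039, limma adjusted p = 0.219, exact permutation p = 0.2). Its levels did not run with those of Alox5 (r = -0.05 over 6 libraries). The ratio of Alox5ap to Alox5 was 5.6, 4.74 and 2.94 in WT and 2.90, 5.0 and 2.36 in LRP5-null libraries, and the ranges of the labels largely overlapped. Zyx (r = 0.98), Pank2 (r = 0.96) and Adck2 (r = 0.95) were nearest to Alox5ap in pattern.

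Lta4h encodes leukotriene A4 hydrolase, which makes leukotriene B4, and lies at chr10:92916141-92947641 (plus strand). It was 317, 342 and 411 TPM in WT and 353, 374 and 394 TPM in LRP5-null libraries. The LRP5-null values fell within the WT range, and the log2 fold change was 0.07 (95% interval -0.17 to 0.31, limma adjusted p = 0.686, exact permutation p = 0.7). Lta4h was 1.5 and 1.55 times Alox5 in WT replicates 1 and 2 and 1.75 times in LRP5-null replicate 2, but 0.953, 0.992 and 1.01 times in WT replicate 3 and LRP5-null replicates 1 and 3. The enzyme that uses leukotriene A4 and the enzyme that makes it were therefore at like transcript levels in 3 libraries only.

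The other branches of lipoxygenase metabolism were near the floor of the table. Ltc4s, which encodes leukotriene C4 synthase, was 0.0198, 0.191 and 0.189 TPM in WT and 0.253, 0.0414 and 0.445 TPM in LRP5-null libraries (exact permutation p = 0.4). Alox15, which encodes 12/15-lipoxygenase, was 0.248, 0.235 and 0.293 TPM in WT and 0.196, 0.264 and 0.255 TPM in LRP5-null libraries (exact permutation p = 0.6). Both genes overlapped between groups, and both lie on chromosome 11. Ltc4s is known from eosinophils, mast cells and platelets, and mouse Alox15 from eosinophils and resident macrophages. The eosinophil markers summed to 148 to 173 TPM in WT and 151 to 159 TPM in LRP5-null libraries, nearly all from Ear2 (136 to 162 TPM). Of the other markers, Prg2 (0.850 to 1.16 TPM in WT, 2.33 to 3.13 TPM in LRP5-null libraries), Epx (0 to 0.0344 and 0.0675 to 0.141 TPM) and Ccr3 (0.788 to 0.997 and 0.997 to 1.17 TPM) were low. Each of these was higher in every LRP5-null library than in any WT library, for Ccr3 by a narrow margin. Groups did not overlap for 29.7% of all genes tested. Siglecf (7.31 to 8.77 and 8.04 to 8.69 TPM), Ear1, Il5ra and Ear6 overlapped between groups. Ear6 was at lower values in LRP5-null libraries (0.707 to 0.835 TPM in WT, 0.433 to 0.734 TPM in LRP5-null). The part of eosinophils in the levels of Ltc4s and Alox15 was not tested. Basophil and mast cell markers summed to 10.8 to 12.9 TPM in WT and 12.3 to 13.6 TPM in LRP5-null libraries, mainly Kit, with Tpsb2 at 0. Monocyte and macrophage markers summed to 579 to 740 TPM and 652 to 705 TPM, mainly Ly6c2, and their part in the levels of Alox15 was not tested.

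Ptgs2 and Ptgs1 encode the cyclooxygenases COX-2 and COX-1, the inducible and the constitutive enzyme that make prostaglandin H2. Ptgs2, at chr1:151947254-151955140 (plus strand), was 218, 192 and 173 TPM in WT and 147, 151 and 159 TPM in LRP5-null libraries. Every LRP5-null library was below every WT library, the lowest WT value being that of replicate 3. The means were 194 ± 22.5 TPM and 152 ± 6.41 TPM (SD, n = 3 each). The log2 fold change was -0.34 (standard error 0.0931, 95% interval -0.56 to -0.12, limma adjusted p = 0.119, unadjusted p = 0.0071). The exact permutation test gave the smallest p it allows, 0.1. The difference did not pass the adjusted threshold, and without WT replicate 3 it was -0.42 with an adjusted p of 0.0198. It was smaller with trends of GC content and transcript length removed (-0.17, limma adjusted p = 0.0666). With the ribosomal share as a covariate it was -0.24 (limma adjusted p = 0.226). Against WT replicate 3 as the only WT library it was -0.18.

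Ptgs1, at chr2:36085946-36107792 (plus strand), was 29.4, 30.4 and 35.5 TPM in WT and 35.2, 35.5 and 35.1 TPM in LRP5-null libraries. WT replicate 3 stood with the LRP5-null libraries, which spanned a narrow range, and the other WT libraries stood below them. The log2 fold change was 0.15 (95% interval -0.05 to 0.35, limma adjusted p = 0.326, exact permutation p = 0.4). Without WT replicate 3 it was 0.23 with an adjusted p of 0.0415 in limma. That fit called 2 of the 7 genes, Ptgs1 and Ptgs2, and 19.6% of all genes tested. WT replicate 3 is the WT library with a ribosomal share like that of the LRP5-null group. With that share as a covariate the log2 fold change of Ptgs1 was 0.041 (limma adjusted p = 0.748). Platelet markers, of a cell type rich in COX-1, summed to 3.97 to 5.67 TPM in WT and 6.10 to 7.07 TPM in LRP5-null libraries without overlap, with Gp9 the highest at 0.899 to 2.13 TPM, and their part in Ptgs1 was not tested.

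The balance between the 2 cyclooxygenase transcripts moved with these values. The ratio of Ptgs2 to Ptgs1 was 7.39, 6.32 and 4.86 in WT and 4.17, 4.25 and 4.54 in LRP5-null libraries. The groups did not overlap, and WT replicate 3 was again the WT library nearest to the LRP5-null group. The ratio was chosen after its parts had been seen and has no test. Over the 6 libraries Ptgs1 and Ptgs2 ran opposite to each other (r = -0.91), as a description over libraries that share depth and scaling. Arsk, Cpne3 and Dync1i2 (each r = 0.998) were nearest to Ptgs2 in pattern. Gm26917 (r = 0.996), Gm45153 (r = 0.995) and AY036118 (r = 0.995) were nearest to Ptgs1. AY036118 was 28.2, 31.6 and 80.8 TPM in WT and 68.7, 72.3 and 73.9 TPM in LRP5-null libraries. Gm26917 was 5.42, 7.02 and 14.3 TPM in WT and 13.6, 15.0 and 14.5 TPM in LRP5-null libraries. Both were lowest in WT replicates 1 and 2, the libraries of lowest ribosomal share. The part of ribosomal reads in these values was not tested.

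**Figure D2:**
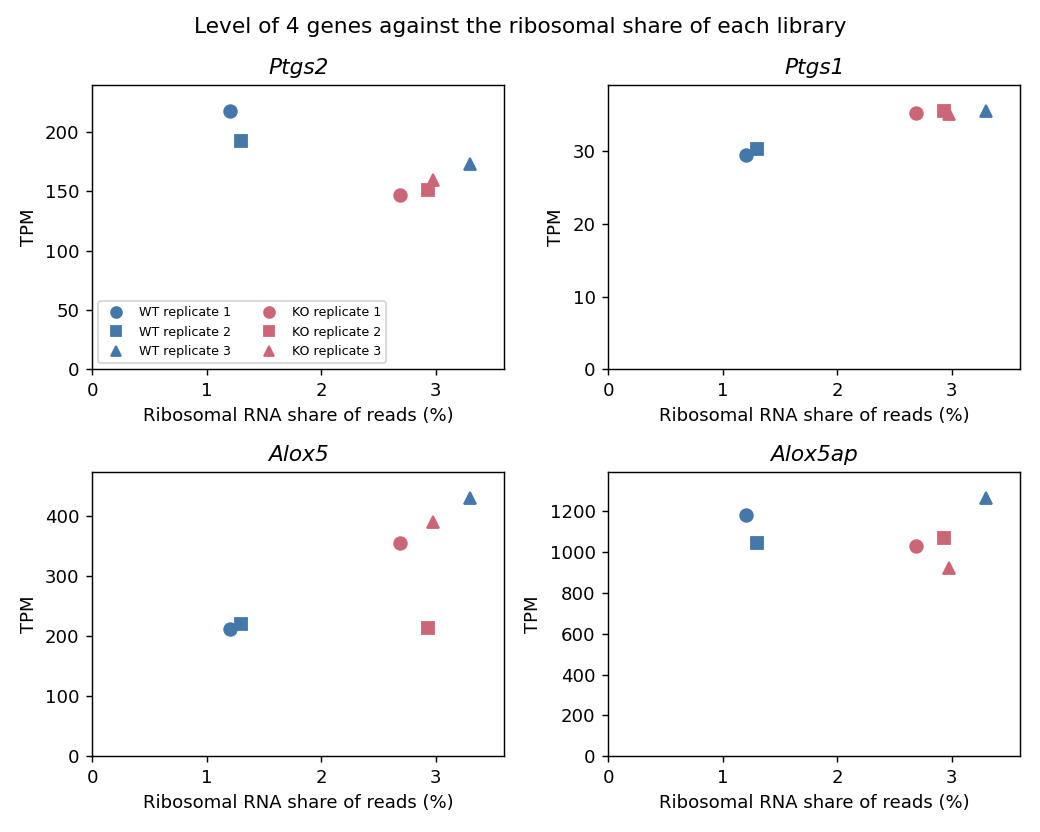
TPM of Alox5, Alox5ap, Ptgs1 and Ptgs2 against the percent of reads assigned to ribosomal RNA, with 1 point per library, WT in blue and LRP5-null, marked KO, in red. WT replicate 3, at 3.30%, lies beside the LRP5-null libraries for Ptgs1 (35.5 TPM), while Alox5 is low in libraries at 1.20%, 1.30% and 2.93%.

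Ptges encodes the microsomal prostaglandin E synthase that acts with COX-2, and lies at chr2:30744991-30785383 (minus strand). It was 4.46, 5.03 and 5.44 TPM in WT and 6.31, 5.39 and 6.03 TPM in LRP5-null libraries. LRP5-null replicate 2 lay just below WT replicate 3, so the groups overlapped. The log2 fold change was 0.21 (95% interval -0.01 to 0.43, limma adjusted p = 0.232, exact permutation p = 0.2), opposite in sign to that of Ptgs2. Hpgd, which encodes the dehydrogenase that inactivates prostaglandins, was 0.990, 1.04 and 0.759 TPM in WT and 0.986, 1.16 and 0.878 TPM in LRP5-null libraries (exact permutation p = 0.6). Its mean of 0.969 TPM was just under the level for testing, and its groups overlapped.

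**Figure D3:**
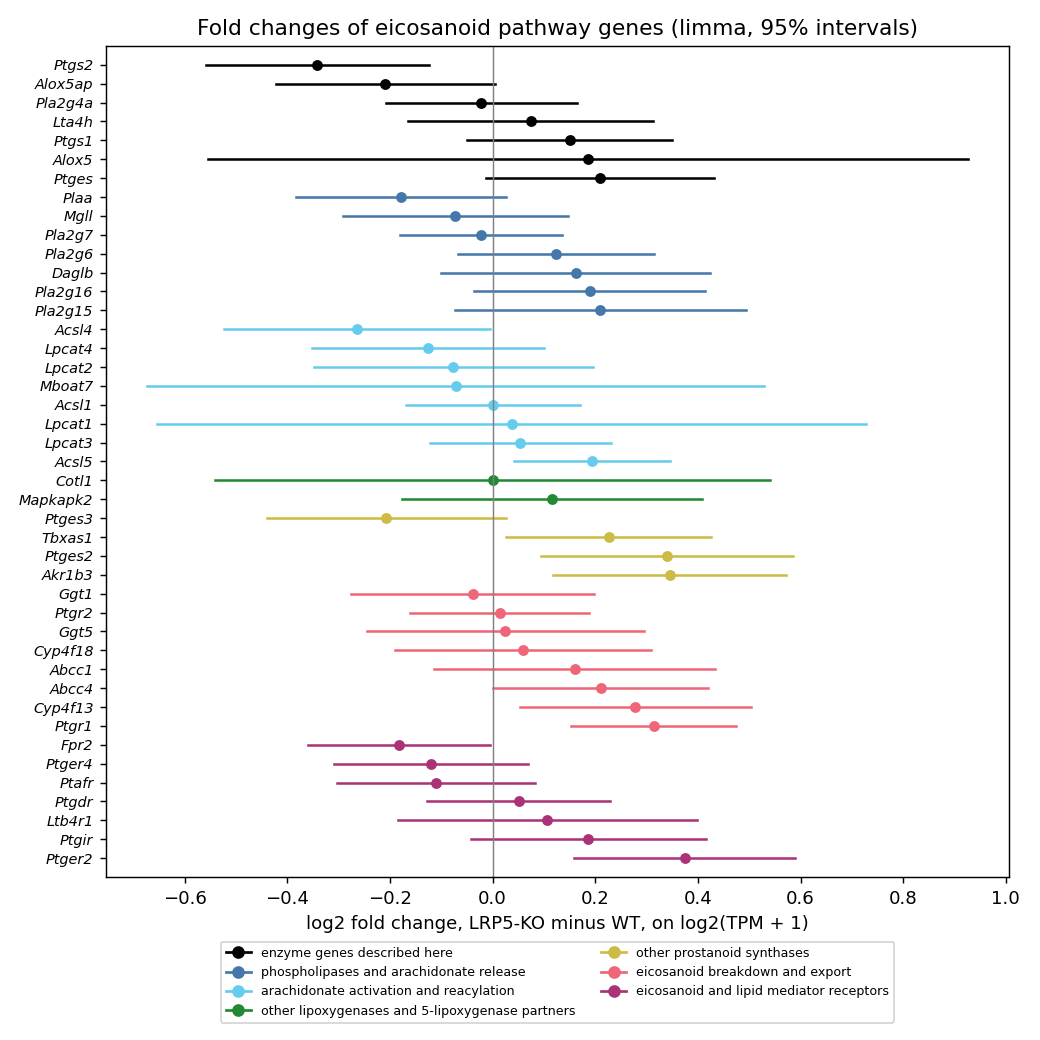
Log2 fold change, LRP5-null minus WT, of each enzyme gene tested and of the tested genes of the wider pathway lists, with 95% intervals from limma. Ptgs2 at -0.34 is the enzyme gene farthest from 0, and the interval of Alox5, -0.55 to 0.93, is the widest of the 7.

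The wider pathway was described with 6 lists of 83 genes, of which 81 were found, 36 had a mean of at least 1 TPM, and 9 were listed at 0 in every library. None of the 36 passed an adjusted p of 0.05 in limma, 24 were higher and 12 lower in LRP5-null libraries, and the median log2 fold change was 0.05 beside 0.04 over all genes tested. An unadjusted p under 0.05 was reached by 8 higher and 2 lower genes, 10 of 36 against 23.5% of all genes tested, a share near the background. The groups did not overlap for 9 higher and 2 lower genes, that is 11 of 36 against 29.7% of all genes tested.

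Among phospholipases and other genes of arachidonate release, 7 of 19 genes found were tested, with 4 higher, 3 lower and a median of 0.12. Pla2g7, the platelet-activating factor acetylhydrolase, was the highest of them and had a log2 fold change of -0.02 (adjusted p = 0.868). Pla2g16, a phospholipase of adipose tissue, had 0.19 (adjusted p = 0.278) and Plaa, the phospholipase A2 activating protein, -0.18 (adjusted p = 0.261), all from limma. The secreted phospholipases Pla2g2e and Pla2g10 were listed at 0 in every library.

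Among genes that bind arachidonate to coenzyme A and return it to phospholipids, 8 of 12 were tested, with 4 higher, 4 lower and a median of -0.04. Acsl4, the acyl-CoA synthetase that prefers arachidonate, was 17.2, 15.2 and 12.7 TPM in WT and 11.9, 12.0 and 13 TPM in LRP5-null libraries (log2 fold change -0.26, limma adjusted p = 0.208). WT replicate 3 again lay within the LRP5-null range, and WT replicates 1 and 2 lay above it. The Acsl4 difference was -0.37 without WT replicate 3, -0.048 against that WT library alone, -0.12 with the ribosomal share as a covariate and -0.063 with GC and length trends removed. Acsl5, an acyl-CoA synthetase of the same family, was 39.5 ± 1.15 TPM in WT and 45.4 ± 1.29 TPM in LRP5-null libraries (SD, n = 3 each; log2 fold change 0.19, limma adjusted p = 0.154) with no overlap. Lpcat2, which makes platelet-activating factor, had -0.08 (limma adjusted p = 0.719).

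Of the other lipoxygenases and the partners of 5-lipoxygenase, only the partners were tested. Cotl1, which encodes a protein that binds 5-lipoxygenase, was 649, 739 and 1201 TPM in WT and 1021, 732 and 771 TPM in LRP5-null libraries, with 0.00032 between the groups on the log2 scale (limma adjusted p = 0.999). Its highest libraries, WT replicate 3 and LRP5-null replicate 1, were also among the 3 high libraries of Alox5, but LRP5-null replicate 3 was not high in Cotl1. Mapkapk2, a kinase that phosphorylates 5-lipoxygenase, had 0.12 (limma adjusted p = 0.598). The lipoxygenases Alox12, Alox8, Aloxe3, Alox12e and Alox12b did not exceed 0.30 TPM in any library.

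Of the other prostanoid synthases, 4 of 10 genes found were tested, with 3 higher, 1 lower and a median of 0.28, and the 3 higher ones had groups without overlap (29.7% of all genes tested had none). Ptges2, a membrane-associated prostaglandin E synthase, was 6.38 ± 0.572 TPM in WT and 8.36 ± 0.967 TPM in LRP5-null libraries (SD, n = 3 each; log2 fold change 0.34, limma adjusted p = 0.139). Akr1b3, an aldose reductase with prostaglandin F synthase activity, was 5.02 ± 0.463 and 6.65 ± 0.614 TPM (SD, n = 3 each; 0.35, limma adjusted p = 0.124). Tbxas1, thromboxane A synthase, the third without overlap, had 0.23 (limma adjusted p = 0.178) and is named because it completes that count. Ptges3, the cytosolic prostaglandin E synthase known also as the co-chaperone p23, had -0.21 (limma adjusted p = 0.251). None of the 4 passed the adjusted threshold. Ptgds was listed at 0 in every library, and Hpgds and Ptgis did not exceed 0.21 TPM.

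Of the genes of eicosanoid breakdown and export, 8 of 14 were tested, with 7 higher, 1 lower and a median of 0.11. Ptgr1, which inactivates leukotriene B4 and prostaglandins, was 12.1, 12.0 and 12.9 TPM in WT and 15.8, 15.6 and 15.3 TPM in LRP5-null libraries. Every LRP5-null library was above every WT library, the log2 fold change was 0.31, and its adjusted p of 0.0892 in limma was the smallest of the wider lists. Cyp4f18, the neutrophil enzyme that oxidises leukotriene B4, was the highest of the list at 323 ± 47.2 and 334 ± 11.0 TPM (SD, n = 3 each; 0.06, limma adjusted p = 0.765). Cyp4f13, of the same cytochrome P450 family, had 0.28 (limma adjusted p = 0.159) with no overlap.

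Of the receptors, 7 of 19 genes were tested, with 4 higher, 3 lower and a median of 0.05. Ptger2, a prostaglandin E2 receptor, was 3.51, 3.76 and 4.46 TPM in WT and 5.42, 5.23 and 5.39 TPM in LRP5-null libraries, with no overlap and WT replicate 3 the nearest to the LRP5-null group (log2 fold change 0.37, limma adjusted p = 0.102). Fpr2, which binds formyl peptides and lipoxin A4, was the highest receptor at 1197 ± 104 TPM in WT and 1053 ± 34.6 TPM in LRP5-null libraries (SD, n = 3 each; -0.18, limma adjusted p = 0.205), also with no overlap. The thromboxane receptor Tbxa2r and the cysteinyl leukotriene receptors Cysltr1 and Cysltr2 did not exceed 0.34 TPM in any library.

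**Figure D4:**
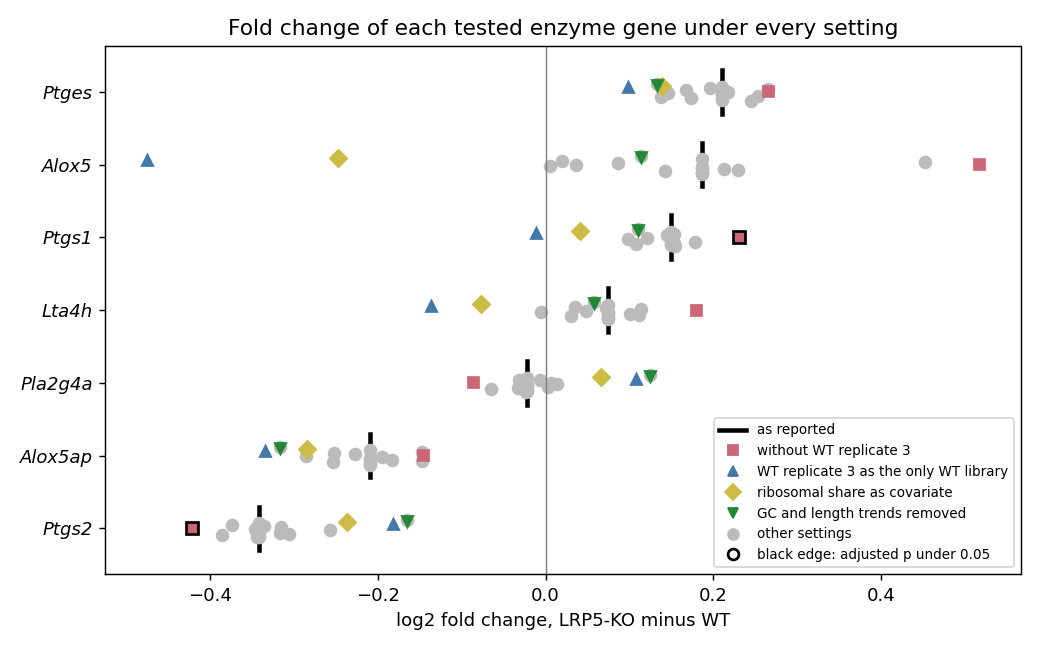
Log2 fold change of each enzyme gene tested (LRP5-null, marked KO, minus WT) under every alternative processing, 1 point per alternative, with the value as reported as a black bar and a black edge where the adjusted p was under 0.05. Ptgs2 stays between -0.42 and -0.17 and Alox5ap between -0.33 and -0.15, whereas Alox5, Lta4h, Ptgs1 and Pla2g4a lie on both sides of 0.

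The direction of the values was steadier for some genes than for others. Ptgs2, Alox5ap and Ptges kept their sign under all alternatives run, Ptgs2 from -0.42 to -0.17 (limma adjusted p from 0.0198 to 0.330) and Ptges from 0.10 to 0.27. Against WT replicate 3 as the only WT library, the log2 fold change of Alox5 was -0.48, that of Lta4h -0.14 and that of Ptgs1 -0.01. These 3 genes were thus negative where WT replicates 1 and 2 were left out. Pla2g4a was at 0.11 in that comparison. The value of Alox5 also depended on the LRP5-null libraries. It was 0.086, 0.45 and 0.019 without LRP5-null replicate 1, 2 and 3 in turn.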

How the data were processed

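Transcripts of mouse marrow neutrophils were measured in 3 WT and 3 LRP5-null libraries, grouped by their labels. The labels name a Percoll gradient and an mRNA kit, whereas the methods name sorted CD11b and Ly6G positive cells, single-end reads and a stranded kit for total RNA. The methods name mm9 and the DESeq2 pipeline; the tool that gave the TPM is not given in the sources used here. The authors deposited gene-level TPM, and a read summary with counts of reads, percent of reads by class, a ratio of coverage bias, a coverage variation score and insert sizes. TPM keeps no depth, so no counting error can be given.

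Genes averaging at least 1 TPM were compared on the log2(TPM + 1) scale by limma 3.58.1 (R 4.3.3), using a mean-variance trend, no covariate and Benjamini-Hochberg adjustment over all 9775 genes, and single genes with exact permutation tests in scipy 1.17.1. The fit was run on simulated data with independent noise for each gene. Its pass mark was set for changes larger than any fold change given above. It does not show that small differences would be found. The 10 genes, the lists and the alternatives were chosen with earlier results of these data known. Named genes were the 10, the highest gene and the 2 smallest p of each wider list, and the 3 genes nearest in pattern to Alox5, Alox5ap, Ptgs1 and Ptgs2. Genes listed at or near 0, Tbxas1, Prg2, Ccr3, Siglecf, Ear1, Ear6, Il5ra, Pla2g15, Ptgir and Lpcat4 were named after their values were seen. Alternatives were another pseudocount, filters, scalings, variance models, libraries left out, a block for the replicate number, the ribosomal share as a covariate, and removal of trends with GC content and length (GENCODE M1, longest protein-coding transcript, 8769 genes, 89.7%). Gene positions are of NCBIM37 and promoters of RefSeq on GRCm38.p6. Reads that overlapping genes share, such as Ptgs2 and Ptgs2os, were not separated here. Lipid measurements of the study were not analysed here.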

Additional observations from a re-analysis of the deposited data

How the results depend on the processing

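Depth limits could not be set, since TPM holds no counts, and with 3 libraries a label the intervals are wide for Alox5. The count of genes past the adjusted threshold in limma was 52 (26 higher, 26 lower) and depended on the setting: 3 with no filter, 29 at a mean of at least 5 TPM (10 higher, 19 lower), 96 after rescaling without mitochondrially encoded and the 20 most abundant genes (69 higher, 27 lower), 6 with WT replicate 3 as the only WT library (1 higher, 5 lower, the lone library assumed to vary like the others), 6 with the ribosomal share as a covariate (1 higher, 5 lower), 430 with GC and length trends removed (157 higher, 273 lower), and 2 to 1920 with 1 library left out, the highest without WT replicate 3. The causes were not tested. With the replicate number as a block it was 4, and 6 with GC and length trends also removed. Whether the numbers pair the samples could not be settled with 3 libraries a label. Between the WT and LRP5-null libraries of one number, r was 0.23, -0.0075 and 0.13 for numbers 1 to 3. Libraries of numbers 1 and 3 were nearest to their own number, and those of number 2 were not. The block changed no call among the 10 enzyme genes, of which it called 0. Of the 10, 0 were called under every setting except without WT replicate 3 (range with 1 library left out 0 to 2). Of the 36 genes of the wider lists tested, 0 were called. With GC and length trends removed 3 were called, beside 430 of 8769 genes in all. With 1 library left out 0 to 8 were called. The 8 were called without WT replicate 3, where 19.6% of all genes tested were called. Without WT replicate 3, Ptgs1 (0.23) and Ptgs2 (-0.42) passed, and of the wider lists Pla2g15, Ptgir, Tbxas1, Acsl4 (-0.37), Ptges3 (-0.30), Ptgr1 (0.34), Cyp4f13 (0.34) and Ptger2 (0.45). Of the wider lists, Ptgr1 (0.31), Ptger2 (0.44) and Lpcat4 passed with GC and length trends removed.

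Reversed log2 fold changes were, with WT replicate 3 as the only WT library, Pla2g4a 0.11, Alox5 -0.48, Lta4h -0.14, Ptgs1 -0.011, Mapkapk2 -0.13, Cotl1 -0.53 and Cyp4f18 -0.15. With the ribosomal share they were Pla2g4a 0.066, Alox5 -0.25, Lta4h -0.077, Mapkapk2 -0.062, Cotl1 -0.33 and Cyp4f18 -0.086. With GC and length trends removed, with and without the replicate block, they were Pla2g4a 0.12, Cotl1 -0.15 and Cyp4f18 -0.058. After rescaling they were Pla2g4a 0.0034 and Pla2g7 0.0045, and with median-ratio scaling Cotl1 -0.044. With 1 library left out, values ran from -0.087 to 0.014 for Pla2g4a, -0.0057 to 0.18 for Lta4h, -0.072 to 0.019 for Pla2g7, -0.17 to 0.039 for Lpcat2, -0.011 to 0.24 for Mapkapk2, -0.18 to 0.27 for Cotl1 and -0.050 to 0.16 for Cyp4f18. Of 438 values of 26 genes under 19 alternatives, 397 kept their direction and side of the threshold, 32 reversed and 9 newly passed it. With no filter the limma adjusted p was 0.691 for Ltc4s, 0.770 for Alox15 and 0.810 for Hpgd. Ptger2 and Pla2g16 had no value at a mean of at least 5 TPM.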
